A study of Mus musculus with 2 samples.

Results

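The transcripts described here are 9 genes of the transforming growth factor beta (TGF-beta) and activin pathways, chosen by name from the 55357 genes listed in both matrices: Tgfb1, Tgfb2, Tgfb3, Inhba, Bmp4, Tgfbr1, Tgfbr2, Smad7 and Tgif1. All 9 were found, each under 1 gene identifier. They were measured in mouse colon tumours by single-cell RNA sequencing, in 2 libraries. The library labelled KO carries the genotype ECM1Flox/Flox, Villin-Cre: floxed alleles of Ecm1, a secreted matrix protein, with Cre recombinase under the Villin promoter, a promoter of intestinal epithelium. The library labelled WT carries ECM1Flox/Flox alone, so the floxed alleles are common to both. The sources used here do not give ages, the number of animals pooled, how the tumours arose or which exons are flanked. With 1 library per genotype there is no replicate, and the differences below are between 2 libraries, with intervals that cover counting error only.

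TGF-beta ligands are secreted in a latent form and, once released, bind the type II receptor Tgfbr2, which recruits and phosphorylates the type I receptor Tgfbr1. The type I receptor phosphorylates Smad2 and Smad3, which enter the nucleus with Smad4. Activins, dimers of inhibin beta subunits such as the product of Inhba, use other receptors of the same family but the same Smads, while bone morphogenetic proteins such as Bmp4 signal through Smad1, Smad5 and Smad9. Smad7 is induced by the pathway and blocks the type I receptor, and Tgif1 encodes a homeodomain repressor that binds the active Smads. In the intestine TGF-beta restrains epithelial growth, shapes regulatory and IL-17-producing T cells and activates fibroblasts.

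Promoter sequences are shown for the 2 members with most differences between the libraries, Inhba and Tgif1, and for Tgfb2, whose level was highest in stromal cells. They are the 250 bases before the start site, on the strand of the gene, from RefSeq on build GRCm38.p6, which is not the build of the matrices. Capitals mark matches to motifs searched on both strands of windows reaching from 250 bases before to 50 bases after each start. The motifs were the CAGA box CAGACA (a core that Smad3 and Smad4 bind), the TATA box TATAAA, the AP-1 site TGANTCA and the cyclic AMP response element TGACGTCA. No match overlapped another in the sequences shown.
Inhba, chr13:16011601-16011850, plus strand: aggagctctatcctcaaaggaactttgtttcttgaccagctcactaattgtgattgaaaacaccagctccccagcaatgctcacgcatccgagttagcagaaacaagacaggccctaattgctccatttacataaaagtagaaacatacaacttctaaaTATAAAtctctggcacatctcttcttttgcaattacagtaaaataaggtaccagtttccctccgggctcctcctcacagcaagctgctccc
Tgif1, the first of 5 start sites, chr17:70853533-70853782, minus strand: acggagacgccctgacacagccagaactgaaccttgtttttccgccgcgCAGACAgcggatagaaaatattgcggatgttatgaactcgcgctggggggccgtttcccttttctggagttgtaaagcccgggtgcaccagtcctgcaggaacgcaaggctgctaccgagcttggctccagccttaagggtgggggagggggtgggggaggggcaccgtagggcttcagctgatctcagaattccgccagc
Tgfb2, chr1:186705990-186706239, minus strand: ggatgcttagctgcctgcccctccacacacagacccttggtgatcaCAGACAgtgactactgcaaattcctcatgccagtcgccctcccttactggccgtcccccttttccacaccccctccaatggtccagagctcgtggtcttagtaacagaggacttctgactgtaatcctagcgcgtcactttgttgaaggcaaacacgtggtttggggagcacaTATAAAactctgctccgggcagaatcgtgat
The Inhba window held 1 TATA box, the Tgif1 window shown 1 CAGA box, and the Tgfb2 window 1 of each. Of the Tgif1 windows not shown, that of start site 2 held 1 CAGA box, and those of sites 3, 4 and 5 held no match. Of 32851 promoter windows of this length, 21% held a CAGA box, 13.6% a TATA box, 7.81% an AP-1 site and 1.79% a cyclic AMP response element. Promoter windows were used for 7 of the 9 members (none for Tgfb3 and Smad7), and those of Tgfb1, Tgfbr2 and Bmp4 held no match to any of the motifs. A match is a description of the letters only.

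The deposited matrices held 4896 barcodes labelled KO and 9512 labelled WT, with medians of 7949.5 and 2705.5 unique molecular identifiers (UMIs) per barcode. After filtering, 4233 and 8262 cells remained, of which 13 barcode sequences occur in both libraries. Cells were named by marker genes, and the members took no part in the clustering. The classes that had 50 cells or more in each library were epithelial-like, Paneth/defensin-like, monocyte-like, macrophage-like, conventional dendritic-like, neutrophil-like, mast-like, T/innate lymphoid-like, B-like and plasma-like. Each of them held UMIs of all markers of its own list in both libraries. Goblet-like cells (153 and 35), fibroblast/mural-like cells (108 and 11) and endothelial-like cells (95 and 12) were too few in the library labelled WT for a ratio. In epithelial-like cells Ecm1 itself stood at 42.5 CPM (UMIs of the gene per 1000000 UMIs of the class; 95% Poisson interval 40.8 to 44.3) in the library labelled KO and at 38.6 CPM (36.2 to 41.1) in that labelled WT. It was thus not lower where the label names a deletion, and since the deleted exons are not known, UMIs from outside them would check nothing. Directions therefore refer to the libraries as labelled. The libraries also differ in sex genes: Xist had 96659 and 5 UMIs, and the Y-linked Ddx3y 0 and 5419. The part of this difference in the results was not tested.

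Among the ligands, Tgfb1, the form made by most leukocytes, was highest in monocyte-like cells. It stood there at 543 CPM (509 to 580) in the library labelled KO and 627 CPM (605 to 649) in that labelled WT, which is 32.8% and 47.0% of all Tgfb1 UMIs in the kept cells. Conventional dendritic-like cells followed at 299 and 273 CPM. In the library labelled KO their interval overlapped that of 20 erythroid-like cells, at 201 CPM (117 to 321). In that labelled WT it overlapped those of macrophage-like cells, at 246 CPM, and of 12 endothelial-like cells, at 244 CPM. Macrophage-like cells labelled KO held 191 CPM. T/innate lymphoid-like cells (143 and 209 CPM) and B-like cells (117 and 133 CPM) lay in the middle of the order. Epithelial-like cells were lowest at 9.96 and 15.7 CPM. Monocyte-like cells thus led the order of Tgfb1 levels in both libraries, while the second place of conventional dendritic-like cells is not resolved in either.

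Tgfb2 and Bmp4 had their highest levels in stromal cells. Of the Tgfb2 UMIs (533 labelled KO and 116 labelled WT), fibroblast/mural-like cells held 79.7% and 44.8%. Epithelial-like cells, at low levels but many in number, held 14.6% and 39.7%. Tgfb2, a ligand of mesenchyme and muscle, stood at 284 CPM (258 to 312) in fibroblast/mural-like cells labelled KO and 539 CPM (402 to 706) in the 11 labelled WT, where 1 cell held 65.4% of the 52 UMIs. The next class was endothelial-like cells, at 18.2 and 140 CPM. Among fibroblast/mural-like cells labelled KO, Tgfb2 was highest in the cluster led by the pericyte gene Rgs5, at 482 CPM. Monocyte-like, neutrophil-like, mast-like and B-like cells held 0 Tgfb2 UMIs in both libraries. In the 2240 neutrophil-like cells labelled WT the limit that a count of 0 allows (3 counts) is 0.665 CPM.

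Bmp4, a morphogen of the intestinal mesenchyme, stood at 237 CPM (213 to 263) and 176 CPM (103 to 282) in fibroblast/mural-like cells. These held 91.2% and 68.0% of its 388 and 25 UMIs. Among those labelled KO it reached 708 CPM in the cluster led by Col3a1 and Igfbp5 and 625 CPM in that led by Tagln and Myh11, but 128 CPM in the cluster led by Mmp10 and Mmp13. Outside the stroma it was near 0, with 0.419 and 0.280 CPM in epithelial-like cells (5.67% and 28% of its UMIs). Bmp4 therefore had too few UMIs for a ratio in any of the 10 classes compared.

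Tgfb3, a ligand known for its part in palate and lung development, had 247 and 125 UMIs in all and was spread thinly over classes. Fibroblast/mural-like cells labelled KO held 20.1 CPM (13.5 to 28.6) and those labelled WT 10.4 CPM, from 1 UMI. T/innate lymphoid-like cells held 5.01 and 11.5 CPM, and 34 of the 45 UMIs labelled WT lay in the cluster led by Il17a and Trdc, genes of IL-17-producing gamma delta T cells. That cluster stood at 33.8 CPM (23.4 to 47.3) in the library labelled WT and 19.2 CPM (6.23 to 44.8) in that labelled KO, so the intervals overlap.

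Inhba, which encodes the activin A subunit, had its highest levels in 2 classes. Fibroblast/mural-like cells held 666 CPM (625 to 708) in the library labelled KO and 2983 CPM in that labelled WT, where all 288 UMIs came from 4 cells and 1 cell held 50.3% of them. In the library labelled KO the cluster led by Mmp10 and Mmp13 stood at 1142 CPM and that led by the contractile genes Tagln and Myh11 at 982 CPM, while the Rgs5 cluster held 69.1 CPM. Fibroblast/mural-like cells held 44.4% and 6.21% of all Inhba UMIs, the latter below the 9.98% of macrophage-like cells labelled WT. Monocyte-like cells held 565 CPM (529 to 602) and 634 CPM (612 to 657), or 42.0% and 67.3% of all Inhba UMIs. Within them the cluster led by Ccl24, Arg1 and Il6, genes of activated and alternatively polarised macrophages, stood at 1141 and 874 CPM. The cluster led by Chil3 and Vcan, genes of inflammatory monocytes, stood at 195 and 272 CPM. Endothelial-like cells held 0 UMIs in both libraries, and B-like cells 0 and 1.

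**Figure D1:**
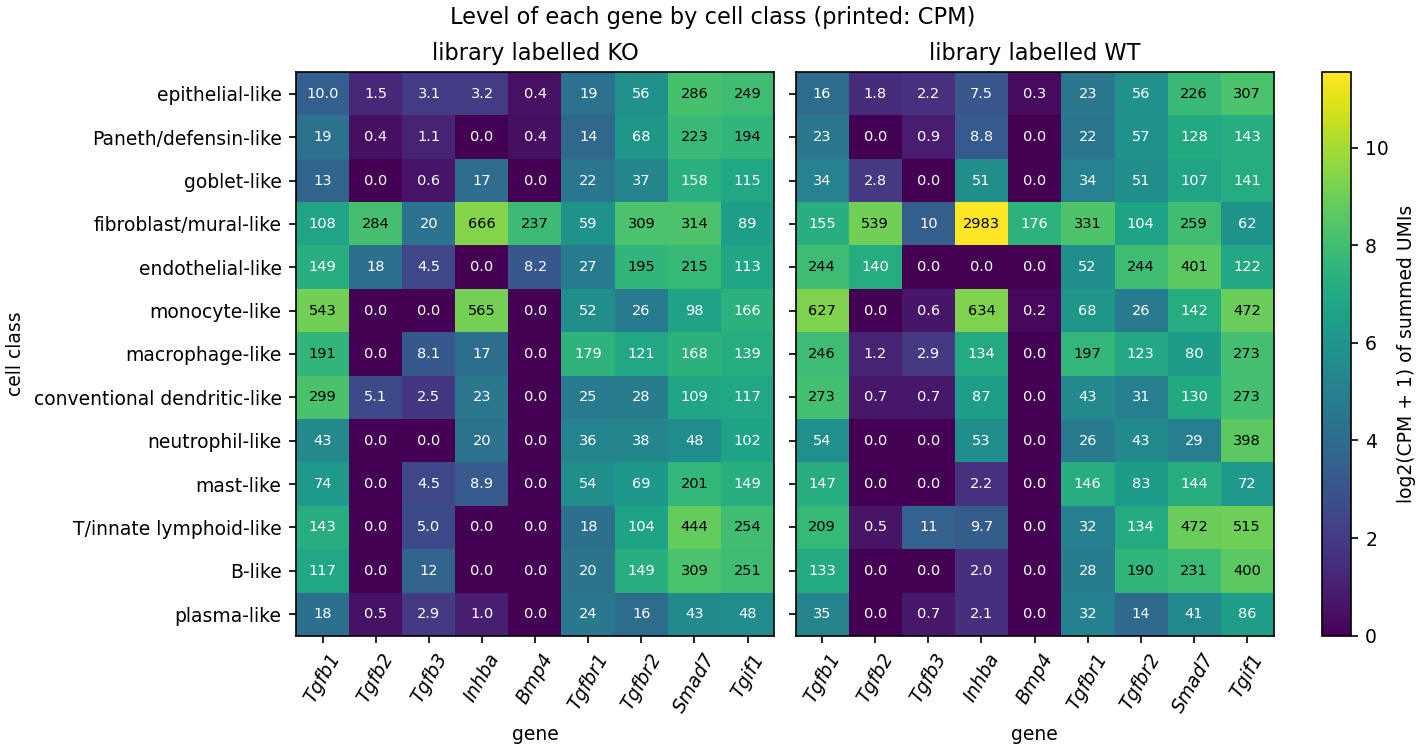
Level of each member in each named class, in CPM (UMIs of the gene per 1000000 UMIs of the class), for the library labelled KO (left) and WT (right); colours are log2(CPM + 1) and numbers are CPM. Tgfb2 and Bmp4 stand out in fibroblast/mural-like cells, Tgfb1 in monocyte-like cells and Inhba in both; fibroblast/mural-like and endothelial-like cells labelled WT number 11 and 12.

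The receptors had different leading classes in the library labelled KO. Tgfbr1, the type I receptor, stood at 179 CPM (162 to 197) and 197 CPM (182 to 212) in macrophage-like cells, the first class in the library labelled KO. In the library labelled WT it was second to fibroblast/mural-like cells at 331 CPM (227 to 468), which stood at 58.8 CPM in the library labelled KO. That rank rests on 32 UMIs, 65.6% of them in 1 cell, and the class differs in make-up, with 52 of 108 and 1 of 11 cells in the Rgs5 cluster. Tgfbr2, the type II receptor, had a clear leading class in the library labelled KO only. In that labelled KO it was highest in fibroblast/mural-like cells at 309 CPM (282 to 339), where the clusters led by Col3a1 and Igfbp5 and by Tagln and Myh11 held 780 and 899 CPM. The 11 cells labelled WT held 104 CPM, from 10 UMIs. Endothelial-like cells held 195 and 244 CPM, and B-like cells 149 and 190 CPM. The endothelial-like level was the highest in the library labelled WT, but it rests on 14 UMIs in 12 cells. Its interval (134 to 410) overlaps that of B-like cells labelled WT (154 to 232). In T/innate lymphoid-like cells Tgfbr2 stood at 104 and 134 CPM. Monocyte-like cells, the class richest in Tgfb1, held 26.4 and 25.8 CPM of Tgfbr2.

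Smad7 and Tgif1, the intracellular brakes, were broadly present. Smad7 was highest in T/innate lymphoid-like cells, at 444 CPM (407 to 483) and 472 CPM (451 to 494). In the library labelled WT their interval overlapped that of 12 endothelial-like cells, at 401 CPM (254 to 602). Among T/innate lymphoid-like cells the cluster led by Penk and Foxp3, the latter the master gene of regulatory T cells, held 547 and 590 CPM. Epithelial-like cells stood at 286 and 226 CPM, and held 15013 and 5654 of the Smad7 UMIs. Plasma-like and neutrophil-like cells were lowest of the 10 classes, at 43.3 and 41.1 CPM and at 47.7 and 29.5 CPM. Tgif1 was highest in T/innate lymphoid-like cells of both libraries, at 254 CPM (227 to 285) and 515 CPM (493 to 538). In the library labelled KO their interval overlapped those of B-like (251 CPM) and epithelial-like cells (249 CPM). In the library labelled WT monocyte-like (472 CPM), B-like (400 CPM) and neutrophil-like cells (398 CPM) came next.

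Members were compared between the libraries where both together held at least 50 UMIs, which left 57 of 90 pairs of a member and a class. A pair was counted as higher or lower where CPM differed at least 2-fold, a rule of size and not a test. By this rule the library labelled KO was higher in 2 pairs and lower in 10. Neutrophil-like cells had 2 of 6 members lower and 0 higher, where 14.3% of all genes with 50 UMIs were lower and 4.17% higher. Conventional dendritic-like cells had 2 of 6 lower (10.4% of genes) and 0 higher (3.9%), T/innate lymphoid-like cells 2 of 6 lower (8.28%) and 0 higher (2.11%). Monocyte-like cells had 1 of 6 lower (9.08%) and 0 higher (2.17%), and epithelial-like cells 1 of 8 lower (7.59%) and 0 higher (2.74%). Macrophage-like cells had 1 of 6 lower (5.13%) and 1 higher (4.35%), and mast-like cells 1 of 5 lower (11.7%) and 1 higher (16.1%). None of 4 members was past 2-fold in B-like cells (2.62% of genes higher, 6.45% lower), none of 5 in Paneth/defensin-like cells (3.11% and 3.65%) and none of 5 in plasma-like cells (7.51% and 7.16%). With so few members in a class, these counts are read gene by gene below. The median log2 ratio of the members ran from -0.68 in T/innate lymphoid-like cells to 0.24 in Paneth/defensin-like cells, against -0.12 and 0.03 for all genes of these classes. The median of all genes was off 0 by over 0.1 in neutrophil-like (-0.16), monocyte-like (-0.12) and T/innate lymphoid-like cells (-0.12).

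**Figure D2:**
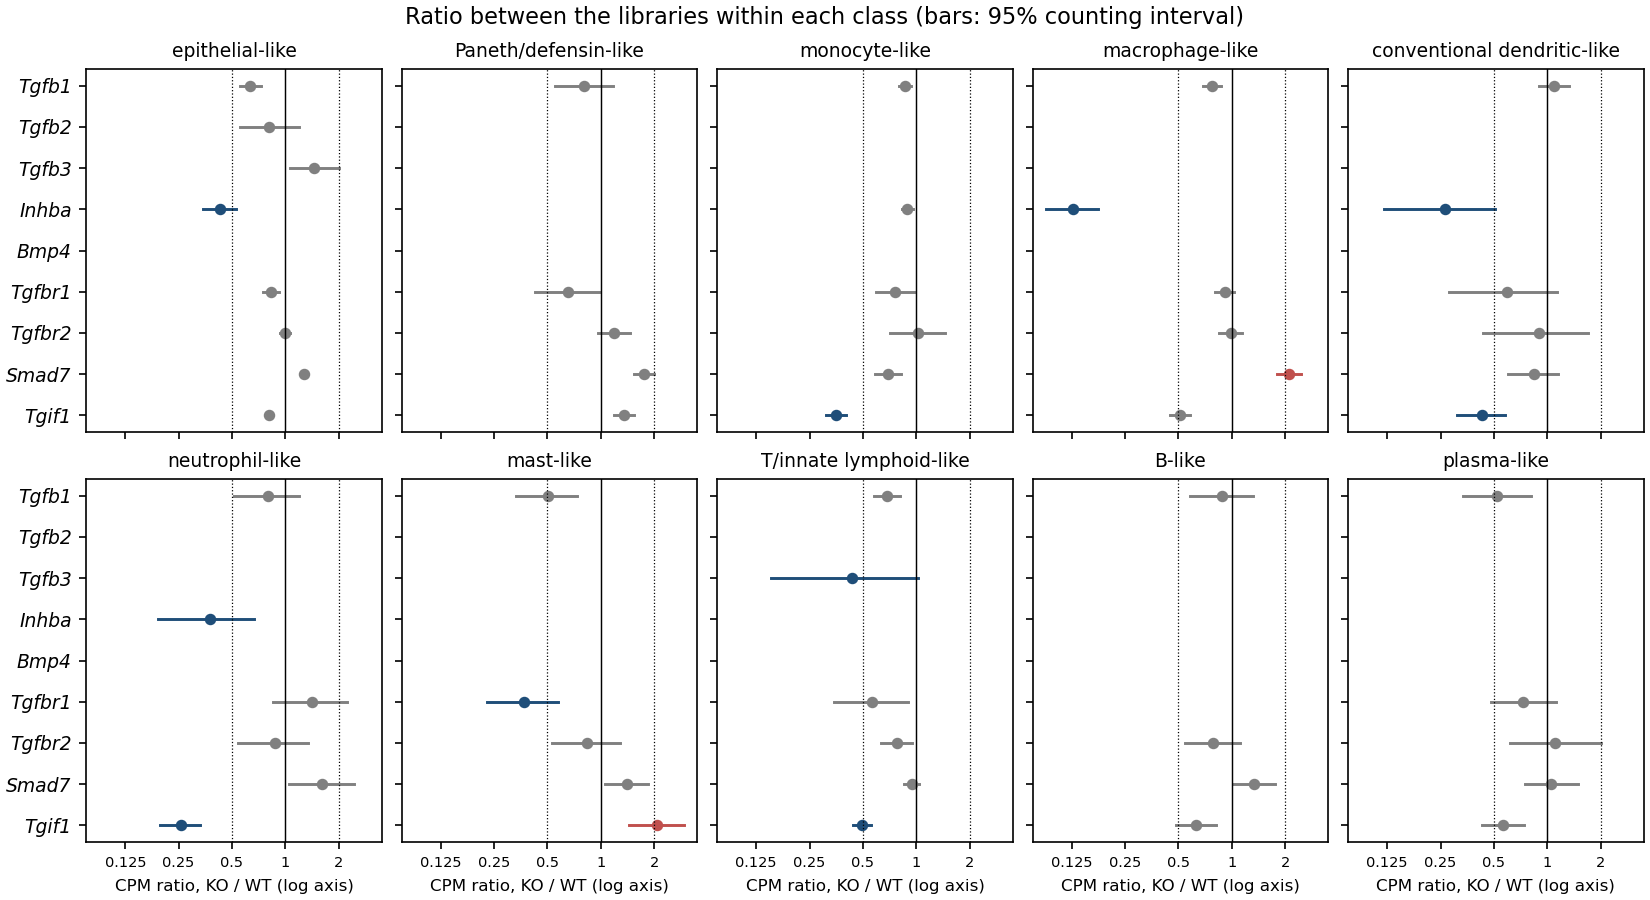
Ratio of CPM, library labelled KO over library labelled WT, on a log axis, for each member with at least 50 UMIs in each of the 10 classes; bars are exact conditional binomial 95% intervals for counting error, dotted lines mark 0.5 and 2, blue points are at least 2-fold lower and red points at least 2-fold higher. Inhba and Tgif1 make up 8 of the 10 lower pairs, and Tgfbr2 lies between 0.78 and 1.18 in all 10 classes.

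Tgif1, the repressor of active Smads, was at least 2-fold lower in the library labelled KO in 4 leukocyte classes. In neutrophil-like cells it stood at 102 CPM (78.2 to 131) and 398 CPM (380 to 417), a ratio of 0.26 (0.20 to 0.33). In monocyte-like cells it stood at 166 CPM (147 to 187) and 472 CPM (453 to 492), a ratio of 0.35 (0.31 to 0.40). Conventional dendritic-like cells held 117 and 273 CPM (0.43, 0.31 to 0.58), and T/innate lymphoid-like cells 254 and 515 CPM (0.49, 0.44 to 0.56). The level labelled KO was below that labelled WT in each of these classes, and their Poisson intervals do not overlap. The ratio in T/innate lymphoid-like cells was 0.54, short of 2-fold, once centred on the median of all genes of the class.

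The same direction held inside these classes. The neutrophil-like cluster led by Hcar2 and Acod1 had a ratio of 0.26 and that led by Retnlg and Mmp8 a ratio of 0.20. The 2 monocyte-like clusters had 0.33 and 0.37. The 4 T/innate lymphoid-like clusters ran from 0.43 to 0.53, each with an interval below 1. Tgif1 was also lower, but not past 2-fold, in macrophage-like cells (139 and 273 CPM, 0.51, 0.45 to 0.58), plasma-like cells (0.56) and B-like cells (251 and 400 CPM, 0.63). In macrophage-like cells the ratio was 0.44 to 0.49 under 6 of the other settings, past 2-fold.

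Epithelial cells differed less. Epithelial-like cells held 249 and 307 CPM of Tgif1, a ratio of 0.81 (0.79 to 0.83), and the 6 of their 7 clusters with cells in both libraries ran from 0.75 to 1.09. Paneth/defensin-like cells, secretory epithelium with antimicrobial products, held more in the library labelled KO, at 194 and 143 CPM (1.35, 1.19 to 1.54).

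The share of cells with a Tgif1 UMI went the same way when every cell was reduced at random to 1000 UMIs, cells of lower depth being dropped. It was 10.3% (6.38 to 15.4) of 195 and 29.2% (27.3 to 31.2) of 2135 neutrophil-like cells, with 6 and 105 cells left out. Unthinned, 23.9% and 43.9% of these cells had a UMI. In monocyte-like cells it was 17.6% of 239 and 36.6% of 918, with 1 and 11 left out and intervals that do not overlap, and 58.8% and 82.5% unthinned. Conventional dendritic-like cells had 11.3% (4.27 to 23.0) and 25.2% (21.2 to 29.6), which overlap, with 3 and 8 left out, and 41.1% and 70.3% unthinned. T/innate lymphoid-like cells had 24.1% and 38.7%, with 9 and 62 left out, and 54.2% and 63.6% unthinned. Epithelial-like cells had 22.8% and 23.2%, so no difference was detectable there. All 10 classes held Tgif1, and plasma-like cells had thinned shares of 6.90% and 6.11%.

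**Figure D3:**
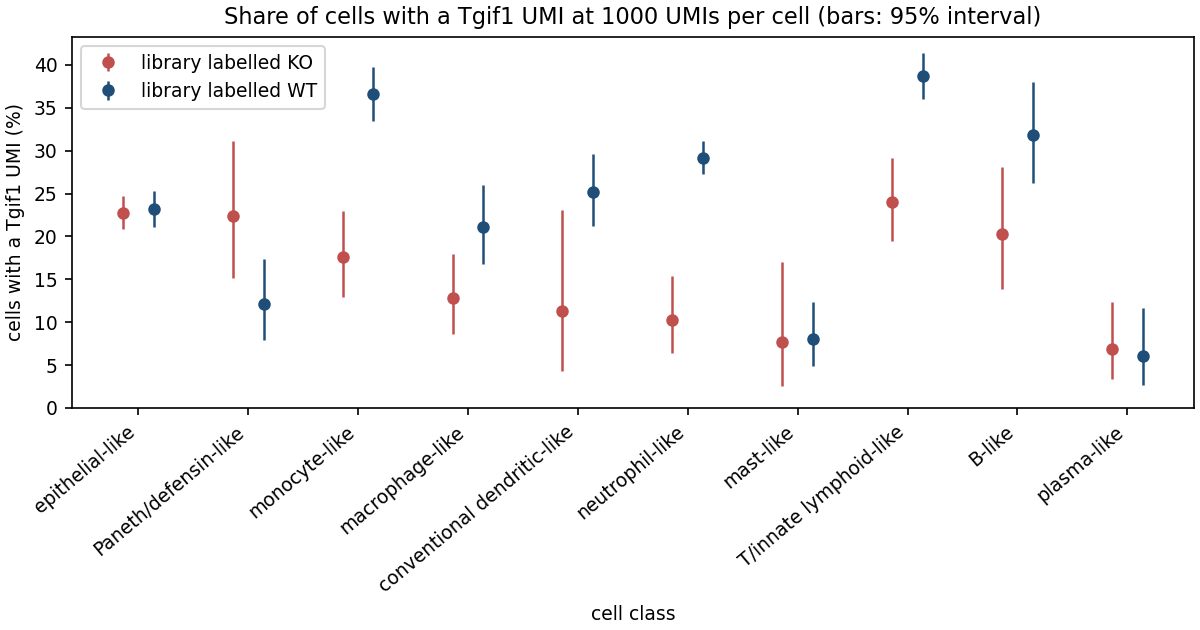
Share of cells (%) with at least 1 Tgif1 UMI after thinning each cell to 1000 UMIs, by class and library; bars are exact Clopper-Pearson 95% intervals. The shares labelled KO lie below those labelled WT in neutrophil-like (10.3% and 29.2%), monocyte-like (17.6% and 36.6%) and T/innate lymphoid-like cells (24.1% and 38.7%), and overlap in epithelial-like and mast-like cells.

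In mast-like cells Tgif1 went the other way, at 149 CPM (116 to 190) and 72.3 CPM (56.1 to 91.9), from 67 UMIs in each library, a ratio of 2.07 (1.45 to 2.94). The summed level is higher in the library labelled KO, but 5 of its 68 cells held 44.8% of the UMIs. At 1000 UMIs per cell, 7.69% (2.54 to 17.1) of 65 and 8.04% (4.83 to 12.4) of 224 cells had a UMI, with intervals that overlap. The ratio was 1.49 without doublet removal, 1.75 with each cell weighted equally, 1.83 at either other clustering resolution, 1.90 without the 5 richest cells and 1.97 when centred on the median, so the 2-fold size is not kept. Epithelial RNA was more frequent in these cells of the library labelled KO: all 12 epithelial markers had UMIs in both libraries, and their sum was 7395 and 426 CPM. Epcam, an epithelial adhesion molecule, stood at 1771 and 57.2 CPM there. Leaving out cells with an Epcam UMI, which was chosen after seeing the data and keeps 34 of 68 and 228 of 259 cells, the former under the minimum of 50, gave a Tgif1 ratio of 1.75.

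The same 12 markers summed to 495 and 334 CPM in neutrophil-like cells and to 321 and 242 CPM in monocyte-like cells. Without cells holding Epcam, Tgif1 had a ratio of 0.26 in neutrophil-like, 0.36 in monocyte-like and 0.48 in T/innate lymphoid-like cells, all past 2-fold. The neutrophil markers summed to 1322 and 2096 CPM in monocyte-like cells and to 200 and 542 CPM in T/innate lymphoid-like cells. In conventional dendritic-like cells, where leaving out cells with either marker left under 50 cells labelled KO, the epithelial markers summed to 444 and 309 CPM and the neutrophil markers to 307 and 1348 CPM, and their part in the Tgif1 ratio was not tested. Without cells holding a UMI of S100a8, a neutrophil granule gene, also chosen after seeing the data, the Tgif1 ratios in monocyte-like and T/innate lymphoid-like cells were 0.37 and 0.45.

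Inhba was at least 2-fold lower in the library labelled KO in 4 of the 5 classes where it could be compared. In macrophage-like cells it stood at 17.0 CPM (12.2 to 23.2; 40 UMIs) and 134 CPM (122 to 147; 463 UMIs), a ratio of 0.13 (0.09 to 0.18), or 7.87-fold lower. The summed level in the library labelled WT is far above that labelled KO, and it lay in few cells, since 5 of 334 held 56.4% of it. At 1000 UMIs per cell, 2.74% (1.01 to 5.87) of 219 and 3.73% (1.94 to 6.42) of 322 macrophage-like cells had an Inhba UMI, with 32 and 12 left out, and 7.97% and 11.7% unthinned. These thinned shares overlap, and 0% and 0.394% of B-like cells had a UMI after the same thinning. Before thinning, median depths were 2339.5 and 1733 UMIs in B-like cells and 7321 and 9923 in macrophage-like cells. With each cell weighted equally the macrophage-like ratio was 0.69, which is short of 2-fold, and it was 0.33 under the 10% mitochondrial limit, 0.24 at resolution 0.5 and 0.22 at resolution 2. Monocyte markers, of a class rich in Inhba, summed to 895 CPM (8 of 9 markers with a UMI, Fcnb at 0) and 722 CPM (9 of 9) in these cells. Of the Inhba UMIs of that class, 744 of 942 and 2591 of 3122 lay in the cluster led by Ccl24, Arg1 and Il6. No monocyte marker is among the leading genes of that cluster, so the sum says little about its RNA, whose part was not tested.

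Conventional dendritic-like cells held 22.8 CPM (10.4 to 43.4) and 86.6 CPM (76.2 to 98.0) of Inhba, a ratio of 0.26 (0.12 to 0.51). Only 9 UMIs underlie the level labelled KO, 88.9% of them in 5 of 56 cells, and the ratio was 0.42 at resolution 2. Neutrophil-like cells held 19.7 CPM (10.2 to 34.5; 12 UMIs) and 52.6 CPM (46.1 to 59.7; 237 UMIs), a ratio of 0.38 (0.19 to 0.67). The share at 1000 UMIs per cell was 1.03% (0.12 to 3.66) and 4.03% (3.23 to 4.95), and 3.98% and 6.29% unthinned, so the thinned intervals overlap. The small neutrophil-like cluster led by Fnip2 and Ccl3 held 149 CPM in the library labelled WT and has only 5 cells labelled KO.

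Epithelial-like cells held little Inhba, 3.20 CPM (2.73 to 3.72) and 7.51 CPM (6.47 to 8.66), a ratio of 0.43 (0.34 to 0.53). Most of it lay in the cluster led by Pnliprp2, Ptn and Wif1, at 8.23 and 17.8 CPM, while the cluster led by Saa1 and Duox2 went the other way, at 14.1 and 6.99 CPM. With each cluster weighted equally the ratio was 0.79, and it was 0.56 under the 10% mitochondrial limit and 0.53 at resolution 0.5, all short of 2-fold. Monocyte-like cells, the main leukocyte source, had a ratio of 0.89 (0.83 to 0.96), made of 0.72 in the Chil3 and Vcan cluster and 1.31 in the Ccl24, Arg1 and Il6 cluster. The class takes 86 of 240 cells from the latter cluster in the library labelled KO and 499 of 929 in that labelled WT, and with each cluster weighted equally the ratio was 1.17. Inhba was thus past 2-fold in 3 of the 4 myeloid classes compared and short of it in monocyte-like cells, which had the highest level.

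**Figure D4:**
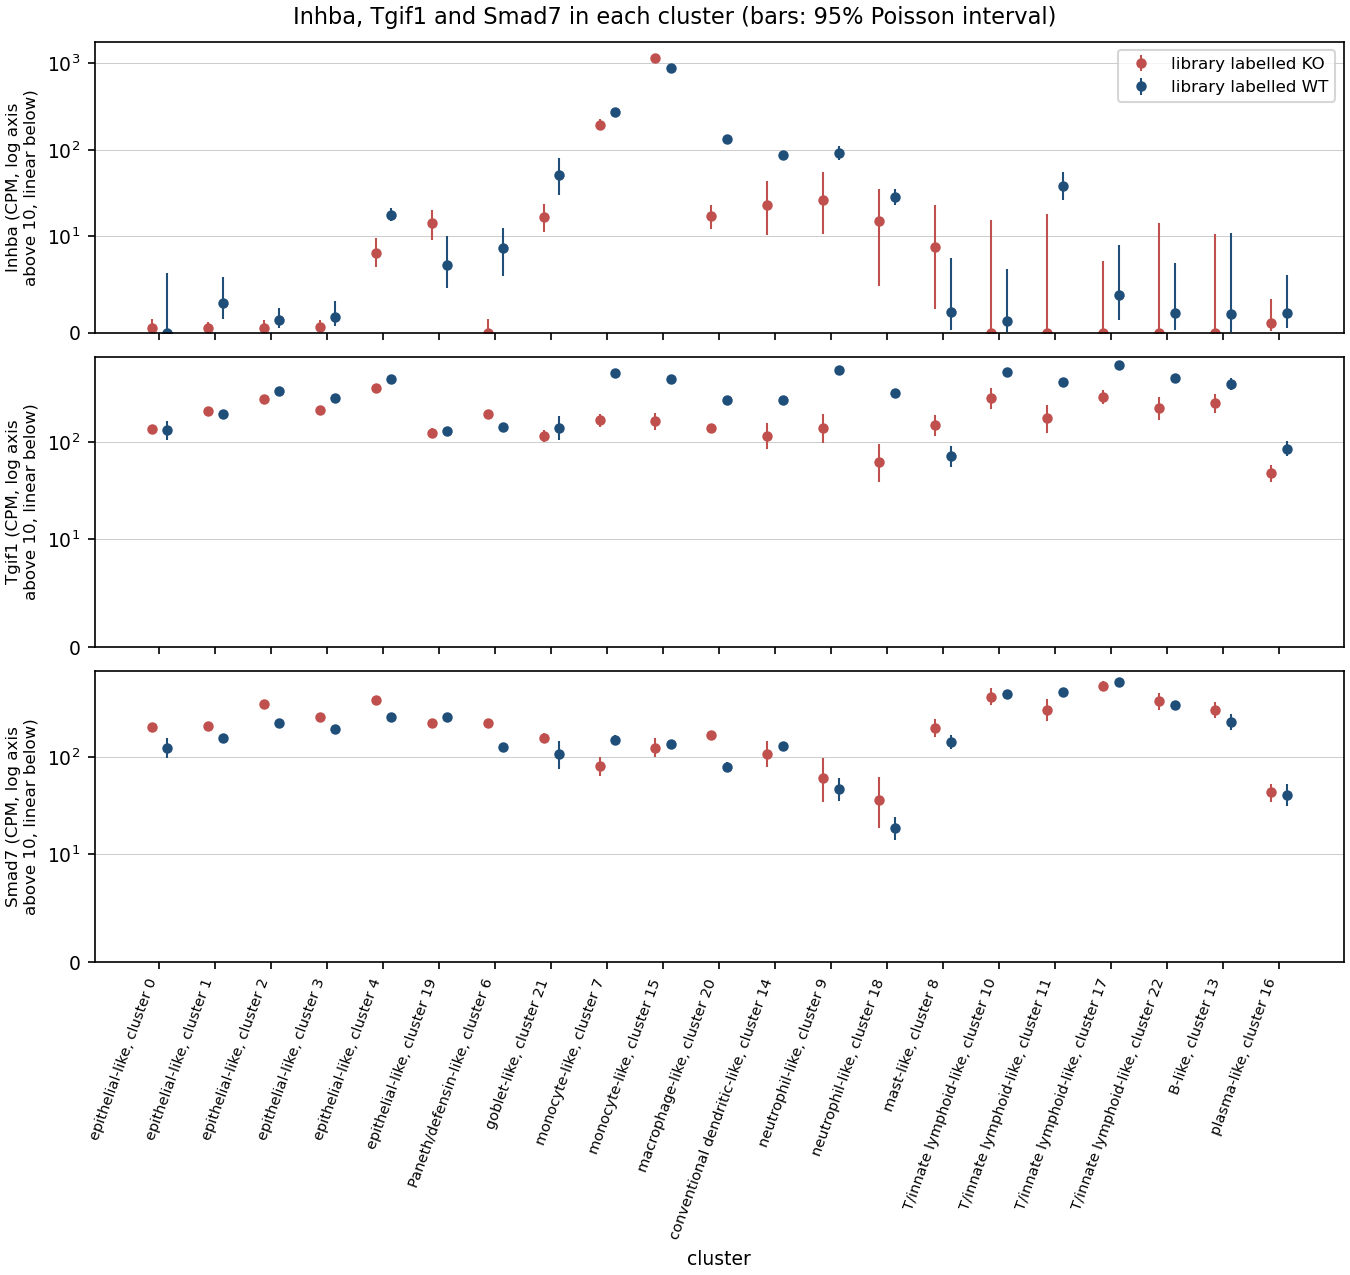
Inhba, Tgif1 and Smad7 levels (CPM; axis logarithmic above 10 and linear below) in each named cluster with at least 20 cells in both libraries; red points are the library labelled KO, blue points that labelled WT, and bars are exact Poisson 95% intervals. Inhba peaks in monocyte-like cluster 15 (1141 and 874 CPM), Tgif1 labelled KO lies below that labelled WT in the monocyte-like, neutrophil-like and T/innate lymphoid-like clusters, and Smad7 labelled KO lies above in 5 of 6 epithelial-like clusters.

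Smad7, the inhibitory Smad, was higher in the library labelled KO in macrophage-like cells. It stood at 168 CPM (152 to 186) and 80.0 CPM (70.8 to 90.0), a ratio of 2.10 (1.80 to 2.46), and the intervals of the levels do not overlap. The thinned shares were 10.5% (6.77 to 15.3) and 6.52% (4.08 to 9.80), which overlap, and 42.6% and 42.2% of cells had a UMI unthinned. The ratio fell short of 2-fold with each cell weighted equally (1.55), under the 10% mitochondrial limit (1.62) and at clustering resolutions 0.5 and 2 (1.86 and 1.85). Epithelial markers summed to 942 and 214 CPM in these cells and neutrophil markers to 721 and 2489 CPM. Without cells holding Epcam the ratio was 1.81, and without cells holding S100a8 it was 1.65.

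Epithelial classes also held more Smad7 in the library labelled KO, short of 2-fold. Paneth/defensin-like cells stood at 223 and 128 CPM (1.75, 1.54 to 1.98) and epithelial-like cells at 286 and 226 CPM (1.27, 1.23 to 1.31), or 1.02 with each cell weighted equally. In 5 of the 6 epithelial-like clusters compared the ratio was above 1, up to 1.63, and in the cluster led by Saa1 and Duox2 it was 0.87. The Paneth/defensin-like ratio was 0.92 without cells holding S100a8, which keeps 84 of 120 and 58 of 219 cells. Monocyte-like cells went the other way at 98.4 and 142 CPM (0.69, 0.58 to 0.82), with 0.53 in the Chil3 and Vcan cluster. T/innate lymphoid-like cells, which had the highest Smad7 level among the classes compared, had a ratio of 0.94 (0.85 to 1.04).

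Of the receptors, Tgfbr1 was 2-fold lower in mast-like cells only, among 9 classes compared. It stood there at 53.5 CPM (34.3 to 79.7; 24 UMIs) and 146 CPM (122 to 173; 135 UMIs), a ratio of 0.37 (0.23 to 0.57). The ratio was 0.50 with each cell weighted equally and 0.57 without cells holding Epcam (34 and 228 cells), both short of 2-fold. Its other ratios ran up to 1.41, in neutrophil-like cells, where the interval (0.85 to 2.23) holds 1. Tgfbr2 passed 2-fold in none of 10 classes, with ratios from 0.78 in T/innate lymphoid-like cells (0.63 to 0.95) to 1.18 in Paneth/defensin-like cells (0.96 to 1.46). In epithelial-like cells, where 2942 and 1406 UMIs were counted, it had 56.0 and 56.2 CPM and a ratio of 1.00 (0.94 to 1.06).

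Tgfb1 passed 2-fold in none of 10 classes, though its interval lay below 1 in 6 of them. Its ratio was 0.87 (0.80 to 0.93) in monocyte-like cells, 0.78 (0.69 to 0.87) in macrophage-like cells, 0.69 (0.58 to 0.81) in T/innate lymphoid-like cells and 0.63 (0.56 to 0.73) in epithelial-like cells. In mast-like cells it stood at 73.6 and 147 CPM, just short of 2-fold at 0.50 (0.33 to 0.74), and the ratio was 1.03 without cells holding Epcam (34 and 228 cells). The Foxp3-led T cell cluster held 133 CPM (103 to 170) and 243 CPM (217 to 272), and these intervals do not overlap. Conventional dendritic-like cells alone had a ratio above 1, 1.10 (0.90 to 1.33).

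Tgfb3 was 2-fold lower in T/innate lymphoid-like cells by its ratio, 0.44, but with 6 and 45 UMIs the interval (0.15 to 1.02) holds 1. The ratio was 0.54 without cells holding Epcam, short of 2-fold. In epithelial-like cells it stood at 3.12 and 2.16 CPM (1.45, 1.06 to 2.01). Tgfb2 could be compared in epithelial-like cells alone, at 1.49 and 1.84 CPM (0.81, 0.55 to 1.19).

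The pathway's other genes were described from a list of 61, arranged by role. They gave 255 pairs of a gene and a class with at least 50 UMIs, of which the library labelled KO was at least 2-fold higher in 17 and lower in 29. Over all genes, 2.11% to 16.1% were higher and 3.65% to 14.3% lower, depending on the class, and the share for the list lies within both ranges. Inhibitors and repressors were the role with most lower pairs, 13 of 59 against 1 higher. Common targets had 9 higher and 7 lower of 69, latency and activation genes 2 and 4 of 45, other receptors 2 and 3 of 32, other ligands 3 and 1 of 15, and Smads 0 and 1 of 35. The Smad count is too near the shares of all genes given above to be read as a result. Smad4, the shared partner, had 129 and 138 CPM in epithelial-like cells (0.93). In neutrophil-like cells it was lower, at 32.9 and 67.9 CPM (0.48).

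The inhibitors lower in leukocytes included both Smad co-repressors. Skil, which encodes the repressor SnoN, stood at 258 and 562 CPM in T/innate lymphoid-like cells (0.46, 0.41 to 0.52) and at 152 and 378 CPM in mast-like cells (0.40, 0.30 to 0.52). Its ratio was below 1 in all 10 classes. Ski was lower in neutrophil-like cells (36.2 and 82.7 CPM, 0.44) and mast-like cells (35.7 and 79.9 CPM, 0.45). Pmepa1, a target of TGF-beta that traps Smad2 and Smad3, was lower in T/innate lymphoid-like cells (122 and 266 CPM, 0.46) and conventional dendritic-like cells (78.7 and 213 CPM, 0.37), also in monocyte-like cells (115 and 237 CPM, 0.49), but higher in mast-like cells (141 and 65.9 CPM, 2.13). In mast-like cells 11.7% of all genes were lower and 16.1% higher, and Epcam stood at 1771 and 57.2 CPM. The part of epithelial RNA in the mast-like values of Skil, Ski and Pmepa1 was not tested. Conventional dendritic-like cells had 5 of 7 inhibitors lower, where 10.4% of all genes were lower. Among these was Bambi, a decoy receptor, with 0 and 58 UMIs, at least 2.65-fold lower against a floor of 3 counts in the library labelled KO. Follistatin, an activin trap encoded by Fst, was lower in epithelial-like cells, at 47.1 and 101 CPM (0.47, 0.44 to 0.50), and in Paneth/defensin-like cells, at 8.80 and 26.7 CPM (0.33).

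Common targets were past 2-fold in both directions. Id1 and Id3, inhibitors of helix-loop-helix factors that bone morphogenetic proteins induce, were higher in macrophage-like cells, at 133 and 28.7 CPM (4.63, 3.68 to 5.87) and 173 and 59.1 CPM (2.93, 2.47 to 3.48). Plasma-like cells held 102 and 23.3 CPM of Id1 (4.40) and 88.1 and 35.0 CPM of Id3 (2.52). In mast-like cells Id1 stood at 696 and 21.6 CPM (32.2, 20.5 to 53.5) and Id3 at 381 and 61.5 CPM (6.20), beside the epithelial marker sums of 7395 and 426 CPM given above. Epithelial-like cells are rich in Id1, at 1293 and 754 CPM, and the part of epithelial RNA in these leukocyte values was not tested. Id3 was higher in neutrophil-like cells (67.4 and 22.4 CPM, 3.01) but lower in monocyte-like cells (156 and 360 CPM, 0.43). Id1 was also higher in T/innate lymphoid-like cells (59.2 and 27.6 CPM, 2.15).

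Most other targets past 2-fold were lower. Fn1, the matrix protein fibronectin, stood at 366 and 946 CPM in macrophage-like cells (0.39, 0.36 to 0.42). Ccn2, a matricellular growth factor, had 8.82 and 21.3 CPM in epithelial-like cells (0.41). Id2 was lower in neutrophil-like cells (34.5 and 102 CPM, 0.34). In Paneth/defensin-like cells Tgfbi, a secreted matrix protein, stood at 2.68 and 26.4 CPM (0.10). Macrophage markers summed there to 70.05 and 361.6 CPM, and neutrophil markers to 387 and 1108 CPM. The part of myeloid RNA in this Tgfbi ratio was not tested. Cdkn2b, a cell cycle inhibitor that TGF-beta induces in epithelium, was higher in Paneth/defensin-like cells, at 41.0 and 15.8 CPM (2.60).

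Among the activators and ligands, Thbs1, which encodes thrombospondin, an activator of latent TGF-beta, showed large differences in both directions. It was lower in neutrophil-like cells, at 700.4 and 3734 CPM (0.19, 0.17 to 0.21), with 18.5% and 67.6% of cells holding a UMI after thinning and 29.9% and 74.6% before. It was also lower in plasma-like cells (35.6 and 144 CPM, 0.25), where the neutrophil granule gene S100a8 stood at 13.95 and 1155 CPM. The part of neutrophil RNA in the plasma-like Thbs1 ratio was not tested. Thbs1 was higher in mast-like cells (286 and 108 CPM, 2.64), where 5 cells labelled KO held 71.9% of its UMIs. Furin, the protease that cleaves TGF-beta precursors, was lower in plasma-like (0.23) and conventional dendritic-like cells (0.42). Ltbp4, a latency-associated matrix protein, was higher in Paneth/defensin-like cells (13.4 and 4.55 CPM, 2.95).

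Bmp2, a bone morphogenetic protein, was lower in Paneth/defensin-like cells (31.4 and 90.0 CPM, 0.35) and higher in macrophage-like cells (28.1 and 12.8 CPM, 2.20). Gdf15, a stress-induced member of the superfamily, was higher in Paneth/defensin-like cells (42.9 and 11.2 CPM, 3.82), and Bmp3 in epithelial-like cells (2.11 and 0.399 CPM, 5.29, from 111 and 10 UMIs). Of the receptors, Acvr1 and Acvr2a were lower in monocyte-like cells (0.45 and 0.38), and Bmpr1a in T/innate lymphoid-like cells (0.30). Acvrl1 was higher in neutrophil-like cells (36.2 and 13.5 CPM, 2.67) and in conventional dendritic-like cells, where its interval holds 1 (2.04, 0.98 to 3.93). The median log2 ratio of the list ran from -0.72 in conventional dendritic-like cells to 0.09 in Paneth/defensin-like cells, against -0.06 and 0.03 for all genes of these classes.

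**Figure D5:**
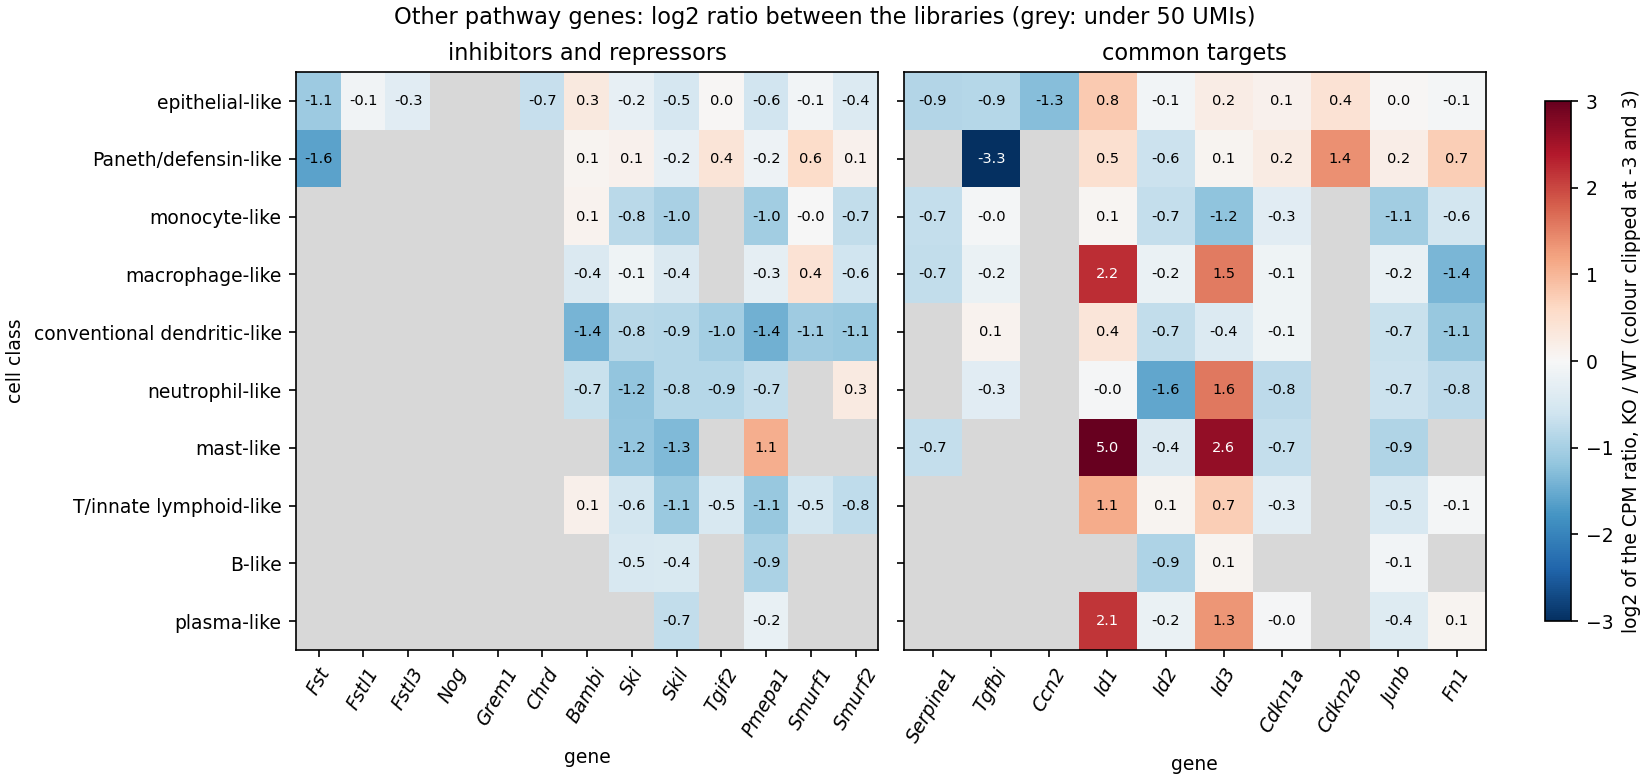
Log2 of the CPM ratio, library labelled KO over library labelled WT, for the inhibitors and repressors (left) and common targets (right) of the list in the 10 classes; numbers are the log2 ratios, colours are clipped at -3 and 3, and grey marks genes with under 50 UMIs. Skil is below 0 in all 10 classes, 5 of 7 inhibitors are at least 2-fold lower in conventional dendritic-like cells, and Id1 and Id3 are above 0 in macrophage-like, mast-like and plasma-like cells.

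The genes whose levels followed each member most closely were found by Pearson's r of log2(CPM + 1) over 23 sums of a class and a library, among 12249 genes. These sums share libraries and depth, so r is a description. Tgfb1 was closest to Pip4k2a, St3gal1 and Gngt2 (r 0.91 each). Tgfb2 was closest to the actin and myosin genes Pdlim3 and Myl9 (0.95 and 0.94) and to Bmp4 (0.94). Bmp4 was closest to the stromal genes Cd248, Lhfp and Mmp3 (0.98 each). Fibroblast/mural-like cells entered only from the library labelled KO (108 cells), as the 11 labelled WT were under 50. Tgfb2 and Bmp4 stood at 284 and 237 CPM in that sum. Their next levels among the sums were 18.2 and 8.18 CPM, in endothelial-like cells labelled KO. The r values of Tgfb2 and Bmp4 thus rest largely on these stromal sums. Tgfbr1 was closest to Cx3cr1, the fractalkine receptor of macrophages and a marker of that class here (0.91), Hebp1 (0.90) and C3ar1 (0.86). Inhba was closest to Lrp1 (0.85), C3 and Sod2 (0.84 each). Smad7 was closest to Top2b, Axin1 and Taf1 (0.94, 0.92 and 0.92), Tgfbr2 to Crocc and Ulk2 (0.86 and 0.85), and Tgif1 to Prkx, Creb1 and Wipf2 (0.82, 0.81 and 0.81). Tgfb3, with few UMIs, was closest to Irak1bp1 (0.91), Stxbp4 (0.80) and Eif3j2 (0.78).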

How the data were processed

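The authors deposited 1 matrix of UMI counts for each library, written by Cell Ranger 7.2.0 per the file headers and not normalized. The build was GRCm39, per the submitters' processing notes. The labels' protocol describes a bulk RNA library and names no capture chemistry. The members and gene lists were chosen with earlier results of these data known.

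Barcodes needed 200 genes or more, and less than 20% of UMIs from mitochondrial genes. The automatic threshold of Scrublet marked 0.0456% and 0% of barcodes, which is no working call, so the top scores at 0.8% per 1000 barcodes were removed (154 and 633). Cells of both libraries were clustered together without integration (scanpy 1.11.5, scaled to 10000 UMIs and log-transformed; 2000 variable genes without members, other pathway genes that are not markers, or mitochondrial, ribosomal and sex genes; 30 components; 15 neighbours; Leiden resolution 1, seed 0). A mixed stromal cluster was split again, giving 34 clusters. Each took the best of 23 marker lists with at least 3 markers in 10% of cells. The T and natural killer/innate lymphoid lists, and the fibroblast and smooth muscle/pericyte lists, were joined after the clusters were seen. Shallow clusters, and those led by another class's markers, stayed unnamed (364 and 353 cells). Class names and the genes that define clusters come from these same cells and are not results.

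UMIs were summed per class and library and divided by the class total (CPM). Levels carry exact Poisson, ratios exact conditional binomial and shares exact Clopper-Pearson 95% intervals (scipy 1.17.1), and these cover counting error only. A library with 0 UMIs took a floor of 3 counts in a ratio. No test was possible with 1 library per genotype. The computation of ratios and calls was tested on simulated data. Named were all members, up to 3 pathway genes per class and direction with the largest ratio past 2-fold, the 3 genes most like each member (1 of them is not reported here), and markers. Smad4 and the values of Id1, Skil and Pmepa1 in other classes were chosen after they were seen. Alternatives were equal weight per cell or cluster, median-centred ratios, no doublet removal, a 10% mitochondrial limit, resolutions 0.5 and 2, other UMI minimums, and leaving out the 5 richest cells. Leaving out cells holding Epcam or S100a8 was added after seeing the data.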

Additional observations from a re-analysis of the deposited data

Results flagged for a closer look

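Tgif1 differed between the libraries in opposite directions in different classes. Its ratio, library labelled KO over library labelled WT, was 2.07 in mast-like cells, but 0.494 in T/innate lymphoid-like, 0.427 in conventional dendritic-like, 0.352 in monocyte-like and 0.256 in neutrophil-like cells. All 5 are past 2-fold by the size rule. The mast-like ratio was short of it without doublet removal (1.49), with each cell weighted equally (1.75), at the other resolutions (1.83) and without cells holding Epcam (1.75). Its thinned shares of cells were 7.69% and 8.04%, and epithelial markers there summed to 7395 and 426 CPM. The T/innate lymphoid-like ratio was 0.54 when centred on the median of all genes. With 1 library per genotype the difference between these classes was not tested.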

How the results depend on the processing

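No paired analysis was possible because each genotype has 1 library, and for the same reason no replicate could be left out. Against 2 members' pairs higher and 10 lower, the higher count was 0 with equal weight per cell and at resolutions 0.5 and 2. It was 1 when median-centred, without doublet removal or under the 10% mitochondrial limit, and 5 with no UMI minimum. The lower count stayed within 1.5 times, from 8 to 12. Against 17 pathway pairs higher and 29 lower, the higher count was 11 at resolution 0.5. With a minimum of 10 UMIs the counts were 42 and 48, and with none 61 and 56. No called ratio changed direction under any setting. Fewer than 50 cells of a library carried the name conventional dendritic-like without doublet removal, under the 10% limit and at resolution 0.5, or Paneth/defensin-like at resolution 0.5, so those ratios could not be made. Without the 5 richest cells, Inhba had a ratio of 0.11 in neutrophil-like and 0.05 in conventional dendritic-like cells, and Tgfb3 0.10 in T/innate lymphoid-like cells. That setting takes 5 cells from each library, a larger share of the smaller one. Low counts left 57 of 90 pairs of a member and a class with a ratio.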

Other observations

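The largest unnamed cluster (316 and 347 cells), closest to the epithelial list but shallow and led by ribosomal RNA transcripts, held Inhba at 42.0 CPM (29.9 to 57.4; 39 UMIs) in the library labelled KO and 1.10 CPM (0.03 to 6.14; 1 UMI) in that labelled WT. Tgfb1 stood there at 39.9 and 17.6 CPM, a ratio of 2.26, and Tgfbr2 at 50.6 and 29.7 CPM. Smad7 and Tgif1 had ratios of 1.30 and 1.13 in this cluster. The Inhba UMIs labelled KO in all unnamed cells lay in 16 of 364 cells.

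Goblet-like cells, mucus-secreting epithelium, held 16.5 and 50.8 CPM of Inhba, from 1 and 2 cells. Paneth/defensin-like cells held 0 and 29 Inhba UMIs, the latter in 10 of 219 cells.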
